A study of Mus musculus with 2 samples.

Results

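Chit1, Nkain1, Pard6g, Rgs3, Chst8, Adamts8, Aen and Ahdc1 are 8 mouse genes, of 21887 protein-coding genes placed on the chromosomes, at whose annotated ends many chromatin loops were called by Hi-C. They were chosen by the loop counts themselves: at least 5 loops, summed over a Tet2/3 DKO list and a WT list, had an anchor bin within 10 kb of either annotated gene end (RefSeq, GRCm38.p6). The threshold was met by 79 genes (0.361% of those placed), so the 8 are a selection from these. The loop numbers below describe that choice and support nothing. Adamts8, Aen and Ahdc1 sat on the threshold with 5 loops each, as did 55 further genes, and 260 genes lay just outside it with 4.

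Hi-C ligates and sequences DNA ends that are close together in fixed nuclei. Here it was run on hair matrix keratinocytes, the dividing epithelial cells of the follicle base, taken as primary sorted cells at postnatal day 4.5. The first library came from mice lacking Tet2 and Tet3, enzymes that oxidise methylated cytosine, deleted with a Krt14-driven Cre that acts in epithelium from the basal layer on (Tet2/Tet3 DKO, Krt14-Cre, here DKO). The second came from wild-type mice (WT); whether these carried floxed alleles or Cre, and how many animals were combined, is not given in the labels. With 1 library per genotype no test was possible, and a difference below compares these libraries, with counting error alone in its interval. Contacts measure no transcripts, so neither the deletion nor the cell type was checked.

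Loops of this kind are thought to form when cohesin draws out chromatin until it meets CTCF bound to DNA, and they often join promoters, enhancers and domain borders. A stripe, in which an anchor contacts a run of neighbouring bins, is the usual picture of an anchor that stays put while chromatin is reeled past it. A fan is an anchor with several separate partners, and a chain is a row of loops that share borders. The 8 genes belong to no common pathway, so they are ordered here by the shape of their contacts.

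The lists held pixels, each a pair of 5 kb bins with its observed contact count: 4872 in DKO and 5811 in WT. Pixels whose anchors both lay within 20 kb were joined into a loop, and a loop was shared where a pixel of the other library lay within 10 kb at both anchors. Dividing a pixel's contacts by the number expected from the donut of bins around it gives its enrichment, here written as times expected. A loop is described by its highest pixel, the one with the most contacts. Of all genes, 20.1% had at least 1 loop within 10 kb of an end in the DKO list and 21.2% in the WT list. The 8 genes had 50 pixels in 25 loops in DKO (95% Poisson interval 16.2 to 36.9) and 55 pixels in 22 loops in WT (13.8 to 33.3).

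By rules of geometry given where each shape is first described, fans were found at 4 of the 8 genes in at least 1 library, chains at 3 and short stripes at 2. At the 71 other genes with at least 5 loops the same rules found fans at 52.1%, chains at 47.9% and stripes at 28.2%, so these shapes were common among genes with many loops. Per library, fans stood at 3 of the 8 genes in DKO and 2 in WT, beside 26.8% and 33.8% of the other 71. Chains stood at 3 in each, beside 35.2% and 40.8%, and stripes at 2 in DKO and 0 in WT, beside 9.86% and 26.8%. Loops that join both ends of a gene were left out of fans and stripes. With them counted, which was tried after the values were seen, Pard6g in DKO also had a fan and Rgs3 in WT also had a stripe. The stripes were then at 2 genes in DKO and 1 in WT. Adamts8 and Aen had none of these shapes in either count. In the arcs drawn for the 8 genes, most loops appear on both sides of the line: 22 of 25 DKO loops (88.0%) and 20 of 22 WT loops (90.9%) were shared. The corresponding shares were 80.2% and 73.6% at the 71 other genes with at least 5 loops, and 55.0% and 50.1% of all loops. A shared loop adds to the count in both lists, so the way the genes were chosen favours shared loops.

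**Figure D1:**
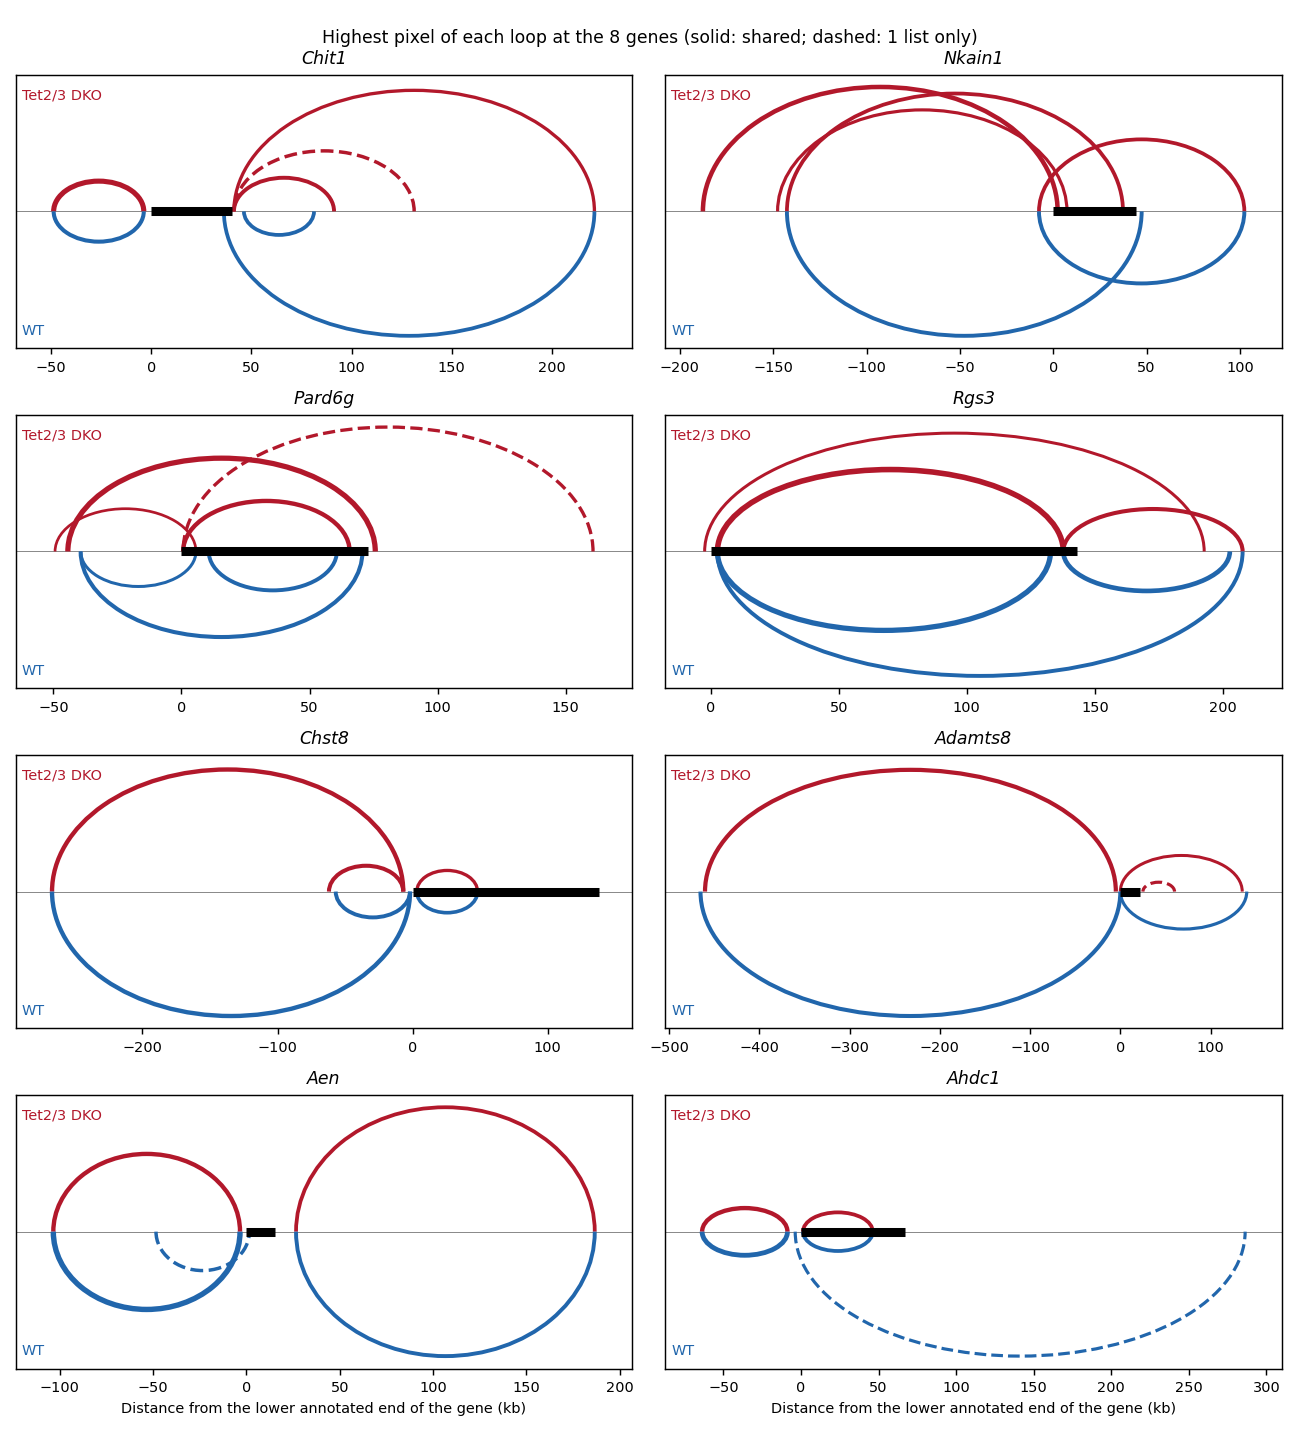
Arcs join the anchors of the highest pixel of each loop at the 8 genes, with DKO above the line and WT under it; the x axis is the distance in kb from the lower annotated end, the black bar is the gene, and thicker arcs have more contacts. Solid arcs are shared loops, and dashed arcs are the 3 DKO and 2 WT loops without a counterpart; arc height follows span only.

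Chit1, which encodes chitotriosidase, a secreted chitin-cleaving enzyme, showed all 3 shapes in DKO. The gene lies on chromosome 1 from 134111242 to 134151541 on the plus strand and had 4 loops in DKO and 3 in WT. At its promoter end a single DKO bin (134105001 to 134110000, 1242 bp from the start of the gene) contacted 4 successive bins covering 20 kb. These 4 pixels had 25, 26, 28 and 22 contacts in order of position, at 6.46, 4.28, 4.65 and 4.08 times the expected counts. A stripe was called where at least 3 pixels shared an anchor bin at the gene and their partner bins followed each other by steps of at most 10 kb. Such steps are shorter than the 20 kb used to join pixels, so a stripe always lies within a single loop. WT had 4 pixels over the same area, with 19 to 21 contacts, but spread over 3 gene-side bins, so the rule was not met. The same patch of contacts was thus listed in both libraries, with 5 pixels in DKO and 4 in WT. The partner bin of the highest pixel, the same in both lists, holds an end of the non-coding Gm19497 and lies 9865 bp from Btg2, an antiproliferative gene. The promoter itself, shown because its start base fell in an anchor bin of 1 DKO pixel, had few CpG dinucleotides (observed/expected 0.116) and none of the letters searched.
Chit1 promoter, chr1:134110992-134111291, plus strand: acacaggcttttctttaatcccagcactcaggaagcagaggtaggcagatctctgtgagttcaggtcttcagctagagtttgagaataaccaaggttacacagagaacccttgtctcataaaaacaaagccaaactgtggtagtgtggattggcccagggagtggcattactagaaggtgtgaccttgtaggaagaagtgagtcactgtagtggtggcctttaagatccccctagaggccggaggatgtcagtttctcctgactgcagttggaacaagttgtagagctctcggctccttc

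Letters were searched in RefSeq promoters of GRCm38.p6, for which 6 of the 8 genes had an entry. They were the CTCF core CNAGNNGGC and the GC box GGGCGG on both strands, and the TATA box TATAAA on the given strand. Of 32851 promoters in the table, 20.8% held the CTCF core letters, 35.7% a GC box and 8.32% a TATA box. The median CpG observed/expected ratio was 0.384 (quartiles 0.176 and 0.750). In the printed promoters capitals mark these letters, and a match is a description of the sequence only.

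At the other end of Chit1 the DKO list held a fan, meaning at least 3 loops whose gene-side anchors lay within 20 kb of each other and whose partners were more than 20 kb apart. All 3 started from the bin 134150001 to 134155000, which holds the end of the gene, and reached 50, 90 and 180 kb away from the gene. They had 20 contacts at 3.54 times expected (2.16 to 5.46), 17 at 4.74 (2.76 to 7.60) and 16 at 5.94 (3.39 to 9.64). The nearest partner lies inside Adora1, the adenosine A1 receptor gene, holds an end of Mybph, a myosin-binding protein gene, and is 9970 bp from Chil1, a chitinase-like gene of the same family as Chit1. The middle partner lies 4544 bp from Adora1 on its other side. The farthest lies inside Ppfia4, which encodes a liprin. In WT the shortest and the longest of the 3 had counterparts, loops of 35 kb (19 contacts, 2.87 times, 1.73 to 4.48) and 185 kb (19 contacts, 8.13 times, 4.90 to 12.7). The gene-side bins of these highest WT pixels lay on either side of the DKO bin. The 90 kb loop was in the DKO list alone, with a highest false discovery rate (FDR) over the 4 neighbourhoods of 0.0826.

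A chain was called where the partner of a loop lay within 10 kb of an anchor of another loop of the same list that ran on away from the gene. From the promoter end of Chit1 the DKO chain stepped 55 kb to a bin starting at 134050001 and from there 145 kb to 133905001 and 315 kb to 133735001. The WT chain stepped 55 kb and then 140 kb to 133910001. No loop of either list joined the outer ends directly, so both chains were open.

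Rgs3 encodes a regulator of G protein signalling, which speeds the return of G alpha subunits to their inactive state. It spans 143 kb on chromosome 4 (62559835 to 62703019, plus strand) and had a closed chain in both libraries. A chain is closed where a further loop joins its outer ends within 20 kb. The first step joined the 2 ends of the gene. Its highest pixel had 31 contacts over 135 kb in DKO, 6.81 times expected (4.63 to 9.67), and 29 contacts over 130 kb in WT, 6.86 times expected (4.60 to 9.86). The second step ran on from the far end of the gene by 70 kb in DKO (21 contacts, 5.52 times, 3.42 to 8.44) and 65 kb in WT (25 contacts, 5.45 times, 3.53 to 8.05). The closing loop joined the promoter end to that same region, with 14 contacts over 195 kb in DKO (3.95 times, 2.16 to 6.63) and 20 contacts over 205 kb in WT (7.30 times, 4.46 to 11.3). In DKO the closing loop was 1 pixel with a highest FDR of 0.0528. At the highest pixels the far region had no protein-coding gene end within 10 kb and, in both libraries, an end of the non-coding Gm30699. The promoter end is shared with 4933430I17Rik, whose end lay 1968 or 6968 bp from the anchor bins. In DKO 3 pixels from the bin 62695001 to 62700000 met the rule for a stripe, with 17, 20 and 21 contacts over 15 kb of partner bins. On that side WT had 2 pixels from the bin, with 24 and 25 contacts. Towards the promoter end the same bin had 3 WT pixels in successive partner bins, with 23, 22 and 16 contacts, against 2 in DKO with 15 and 31. These pixels belong to the loop joining both ends, and with that loop counted WT met the stripe rule at this bin. The promoter entry at the start of the gene is shown because its start base lay in an anchor bin in both lists, in 2 DKO pixels and 1 WT pixel. It held 1 TATA box and had a CpG ratio of 0.216. Another entry, inside the gene (62619422 to 62619721), is not shown. Its start base lay in an anchor bin of 0 pixels in DKO and 0 in WT, and it held 1 GC box and 1 TATA box.
Rgs3 promoter, chr4:62559597-62559896, plus strand: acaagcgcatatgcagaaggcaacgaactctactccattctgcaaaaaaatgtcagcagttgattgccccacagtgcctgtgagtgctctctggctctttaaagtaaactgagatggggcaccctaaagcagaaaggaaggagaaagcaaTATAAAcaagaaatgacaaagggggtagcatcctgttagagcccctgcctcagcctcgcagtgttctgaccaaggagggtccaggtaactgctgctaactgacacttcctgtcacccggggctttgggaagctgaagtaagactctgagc

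**Figure D2:**
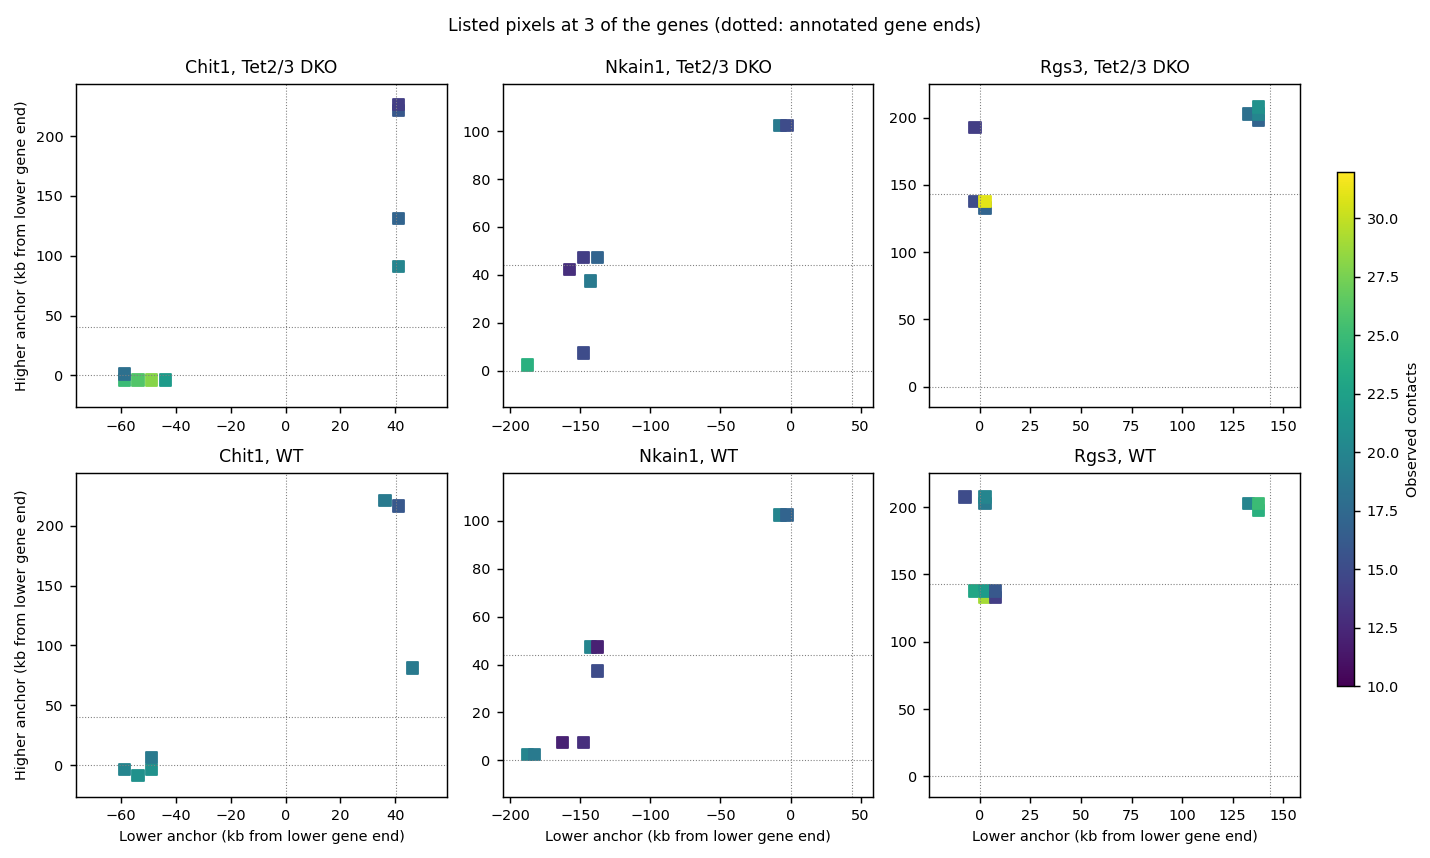
Each square is a listed pixel at Chit1, Nkain1 or Rgs3, with DKO in the top row and WT in the bottom row; the axes give the position of the lower and the higher anchor in kb from the lower gene end, and colour gives observed contacts. Squares are larger than the 5 kb bins. The row of squares at the bottom left of the Chit1 DKO map is the stripe of 4 bins, the column at its right is the fan, and both Rgs3 maps show the same 3 patches.

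Pard6g, on chromosome 18 (80046830 to 80119640), encodes a PAR6 scaffold of the complex that sets cell polarity together with PAR3 and atypical protein kinase C. It had 4 loops in DKO and 3 in WT and, like Rgs3, a closed chain in both. A region outside the lower end contacted that end over 55 kb in DKO (12 contacts, 4.02 times expected, 2.08 to 7.01) and 45 kb in WT (14 contacts, 5.35 times, 2.92 to 8.98). The highest FDR of this loop was 0.0828 in DKO and 0.0491 in WT. Bins at the 2 ends of the gene contacted each other over 65 kb in DKO (23 contacts, 4.14 times, 2.63 to 6.22) and 50 kb in WT (20 contacts, 3.44 times, 2.10 to 5.31). In DKO these bins lay 0 and 4640 bp from the ends. In WT both bins lay inside the gene, 8171 and 9640 bp from the ends. The highest FDR of this contact was 0.00434 in DKO and 0.0417 in WT. With gene ends within 5 kb of the bin, Pard6g had 2 loops in WT. The outer region contacted the higher end over 120 kb in DKO (29 contacts, 6.76 times, 4.53 to 9.71) and 110 kb in WT (21 contacts, 5.37 times, 3.32 to 8.21). The outer join was thus the loop with the most contacts in each list. The higher end lies near Adnp2, whose end was 1315 bp from the anchor bin of that pixel in DKO and 6315 bp in WT. The fourth DKO loop had no WT counterpart. With the loop that joins the ends counted, the lower end met the rule for a fan in DKO, with 3 loops. It ran 160 kb from the lower end to a bin holding ends of Txnl4a, a spliceosome gene, and Gm16286, with 16 contacts at 7.64 times expected (4.37 to 12.4) and a highest FDR of 0.00143. The nearest WT pixel lay 90 kb from it, counting the more distant anchor.

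Chst8 encodes a sulfotransferase that adds sulfate to terminal N-acetylgalactosamine of glycoproteins. It lies on chromosome 7 from 34674468 to 34812711 on the minus strand, and had 3 loops and 4 pixels in each library, every pixel within 5 kb of one in the other list. All of them stood at the lower end, which is the end opposite to the promoter, in both libraries. They formed a fan on both sides of that end. The longest loop reached 260 kb away from the gene in DKO (23 contacts, 6.72 times expected, 4.26 to 10.1) and 265 kb in WT (23 contacts, 6.77 times, 4.29 to 10.2). A second reached 55 kb in the same direction, with 21 contacts in DKO (3.46 times, 2.14 to 5.29) and 20 in WT (4.46 times, 2.72 to 6.89). The third ran 45 kb into the gene body, with 16 contacts in DKO (4.06 times, 2.32 to 6.59) and 18 in WT (3.57 times, 2.11 to 5.64). The far partner bin was the same in both lists (34405001 to 34410000) and lay 4975 bp from the non-coding Gm12764. The gene-side bin of that loop lay 3799 bp from the non-coding Gm12781 and 9492 bp from Kctd15 in DKO, and 8799 bp from Gm12781 in WT.

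Nkain1 encodes a membrane protein that interacts with the sodium/potassium ATPase. It lies on chromosome 4 from 130530131 to 130574216 on the minus strand and had the highest enrichments of the 8 genes, with a median of 12.9 over 8 DKO pixels and 19.3 over 9 WT pixels. The medians of the 7 other genes lay between 4.45 and 6.18 in DKO and between 3.76 and 5.88 in WT. The observed counts were not high, 13 to 24 in DKO and 12 to 20 in WT. The most enriched pixel was the same in both lists and had an expected count of 0.417 in DKO and 0.412 in WT, against medians over all pixels of 3.72 and 3.63. It had 17 contacts in DKO, 40.8 times expected, and 12 in WT, 29.1 times. In the whole lists, 46 of 4872 DKO pixels and 69 of 5811 WT pixels were at or above the highest enrichment at the 8 genes. The loop that ran 110 kb from beside the lower end across the gene had 19 contacts in DKO (24.9 times, 15 to 38.9) and 20 in WT (26.8 times, 16.4 to 41.3). Its expected count was again under 1 in both, 0.763 and 0.747. The DKO pixel with the most contacts, 24 at 6.85 times, stood at 3.88 times (2.48 to 5.77) with the expected count of the vertical neighbourhood and at 19.4 (12.5 to 28.9) with that of the bottom-left one. The WT pixel at 26.8 times stood at 8.88 times (5.42 to 13.7) with the horizontal expected count. With the bottom-left one it stood at 41.5 times (25.3 to 64.0). How sparse neighbourhoods bear on these ratios was not tested.

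The contacts of Nkain1 fell into a patch in which both ends of the gene met a region 140 to 190 kb below its lower end, in DKO and in WT. The region holds Zcchc17 and Snrnp40, which encodes a spliceosome protein. The second patch joined the lower end, across the gene, to a bin 105 to 110 kb away on the other side that had no gene end within 10 kb. DKO had 4 loops, of which 3 met the rule for a fan on both sides, and WT had 2. That difference rests on linkage: in WT 7 pixels at the gene were joined into a single loop, in DKO 6 pixels of the same area stood as 3 loops. With pixels joined within 10 kb, the count was 4 in DKO and 5 in WT. With 50 kb it was 2 in each. Of the 8 DKO pixels 7 had a WT pixel within 10 kb at both anchors, and 8 of the 9 WT pixels had a DKO pixel so placed. The promoter, shown because its start base lay in the anchor bin of 1 DKO pixel, was rich in CpG dinucleotides (observed/expected 0.921). It held 4 GC boxes and 1 match to the CTCF core letters, which overlaps the leftmost GC box; both are matched there on the opposite strand.
Nkain1 promoter, chr4:130573987-130574286, minus strand: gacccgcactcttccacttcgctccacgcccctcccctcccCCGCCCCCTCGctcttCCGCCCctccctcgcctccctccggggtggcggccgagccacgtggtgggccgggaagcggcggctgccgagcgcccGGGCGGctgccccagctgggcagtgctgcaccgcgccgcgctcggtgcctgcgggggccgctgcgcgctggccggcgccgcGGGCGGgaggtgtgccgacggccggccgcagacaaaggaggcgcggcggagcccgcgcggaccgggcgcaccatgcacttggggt

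**Figure D3:**
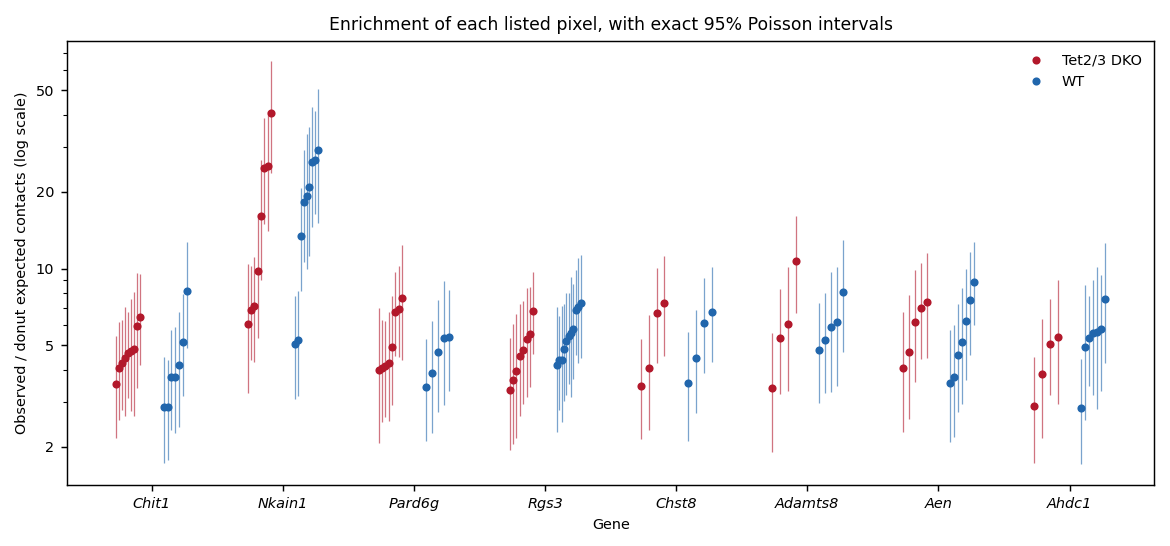
Points are the enrichment of every listed pixel at the 8 genes on a log axis, DKO in red to the left of WT in blue, with exact 95% Poisson intervals as lines. Pixels of Nkain1 reach 40.8 in DKO and 29.1 in WT, and those of the 7 other genes stay at or under 10.7 in DKO and 8.87 in WT.

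Ahdc1 encodes a protein with AT-hook motifs, which bind DNA in the minor groove. It lies on chromosome 4 from 133011265 to 133078110 on the plus strand, and all of its loops, 2 in DKO and 3 in WT, stood at the promoter end. The first loop ran 55 kb away from the gene, with 23 contacts in DKO (5.05 times expected, 3.20 to 7.57) and 26 in WT (5.32 times, 3.48 to 7.79). Its gene-side bin holds the end of Fgr, a SRC-family kinase gene, and lies 6265 bp from Ahdc1, so Fgr is the nearer gene there. The next ran 45 kb into the gene body, with 19 contacts in each list at 2.88 times expected in DKO (1.73 to 4.49) and 2.83 in WT (1.71 to 4.42). In DKO the 2 partners of these loops were themselves joined, by a pixel over 110 kb with 14 contacts at 5.96 times expected, which is not listed in WT. In WT the promoter end had a loop of 3 pixels into Wdtc1 without a DKO counterpart. Its highest pixel spanned 290 kb and had 15 contacts at 7.62 times expected (4.27 to 12.6) and a highest FDR of 0.000918. The nearest DKO pixel lay 210 kb from it. With that loop, Ahdc1 met the rule for a fan on both sides in WT and not in DKO. The start base of the promoter lay in an anchor bin of 1 DKO pixel and 2 WT pixels. The sequence, shown for that reason, had the highest CpG ratio of those printed, 0.982, and held 1 GC box, matched on the opposite strand.
Ahdc1 promoter, chr4:133011256-133011555, plus strand: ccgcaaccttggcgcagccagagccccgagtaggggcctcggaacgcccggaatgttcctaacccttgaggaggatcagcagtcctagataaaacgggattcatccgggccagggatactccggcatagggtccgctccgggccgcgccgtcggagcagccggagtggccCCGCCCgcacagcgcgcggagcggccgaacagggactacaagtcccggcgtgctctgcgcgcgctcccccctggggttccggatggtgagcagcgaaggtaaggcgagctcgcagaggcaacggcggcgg

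Adamts8 encodes a secreted metalloprotease with thrombospondin repeats. It lies on chromosome 9 from 30942562 to 30963838 and is 21.3 kb long. Its loops formed no fan, chain or stripe at the gene but a pair running in opposite directions from the lower end. The long loop, the longest at any of the 8 genes, spanned 455 kb in DKO (22 contacts, 10.7 times expected, 6.68 to 16.1) and 465 kb in WT (21 contacts, 5.24 times, 3.24 to 8.003). These highest pixels lie in different bins. At the 2 pixels listed in both libraries, the loop had 22 and 19 contacts in DKO and 15 and 21 in WT. The opposite loop spanned 135 kb in DKO (14 contacts, 6.04 times, 3.30 to 10.1) and 140 kb in WT (15 contacts, 5.88 times, 3.29 to 9.69). In DKO its far bin held an end of Zbtb44, a zinc finger gene, and lay 8590 bp from St14, which encodes matriptase, a membrane protease of the epidermis. In WT the far bin was the next one, 4116 bp from Zbtb44 and 3590 bp from St14. In WT the far bin starting at 30480001 had pixels to 3 successive bins at the gene, with 17, 15 and 21 contacts, the only such run at a partner bin among the 8 genes. In WT the far partners of both loops were also joined by a pixel over 605 kb with 12 contacts at 7.19 times expected, which is not listed in DKO. Another loop, in DKO alone, ran 35 kb from the higher end to an end of the non-coding Gm29724, with 15 contacts at 3.39 times expected (1.90 to 5.60) and a highest FDR of 0.0869.

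Aen encodes a nuclease that promotes apoptosis and is a target of p53. At 15.3 kb (chromosome 7, 78895927 to 78911209, plus strand) it is the shortest of the 8, and it too had a loop on each side. From the promoter end a loop of 100 kb reached Mrps11 and lay near Mrpl46, both genes of the mitochondrial ribosome, with 23 contacts in DKO (6.99 times expected, 4.43 to 10.5) and 30 in WT (8.87 times, 5.99 to 12.7). From the other side a loop of 160 kb reached into Acan, the aggrecan gene, with 19 contacts in DKO (7.39 times, 4.45 to 11.5) and 20 in WT (7.51 times, 4.59 to 11.6). Its gene-side bin holds an end of Isg20, an interferon-induced exonuclease gene, and lies 8792 bp from Aen. With anchors counted only where the gene end lies inside the bin, Aen had 0 loops in DKO and 1 in WT. WT alone had a loop of 50 kb to Det1 (17 contacts, 3.57 times, 2.08 to 5.72), with a highest FDR of 0.0722. The first of the 2 promoter entries of Aen, which overlap, is shown because its start base lay in an anchor bin of 1 WT pixel and of 0 DKO pixels. It had a CpG ratio of 0.794 and 1 match to the CTCF core letters.
Aen promoter, chr7:78895677-78895976, plus strand: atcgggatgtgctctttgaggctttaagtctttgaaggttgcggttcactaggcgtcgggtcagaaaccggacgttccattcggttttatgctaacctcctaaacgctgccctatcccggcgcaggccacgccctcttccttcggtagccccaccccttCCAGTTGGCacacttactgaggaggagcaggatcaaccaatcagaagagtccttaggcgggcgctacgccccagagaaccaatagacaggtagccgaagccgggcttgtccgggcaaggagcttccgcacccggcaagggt

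The bin below the promoter-end anchor of Aen holds the hairpin of Mir7-2 (78888277 to 78888373) and was listed in 1 of 5 DKO pixels and 0 of 7 WT pixels. The mature miRNA is shown because its hairpin lies beside that anchor, with the seed in capitals.
mmu-miR-7a-5p, chr7:78888295-78888317, plus strand: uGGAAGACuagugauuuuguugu

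Over the 6 genes with a known strand, loops stood at the promoter end 6 times in DKO and 8 times in WT. They stood at the opposite end 11 times in DKO and 8 times in WT, and 1 loop in each list joined both. Each loop was placed by its highest pixel, and no such count was made for other genes. Nkain1, whose loop numbers rest on linkage, gave 1 loop at the promoter end and 3 at the opposite end in DKO. In WT it gave 1 at each. Of the anchors at the genes, 8 of 27 in DKO and 7 of 24 in WT were also within 10 kb of an end of another protein-coding gene. That gene was the nearer one at 2 anchors in each list, at Aen and at Ahdc1. Non-coding genes and pseudogenes were left out of this count. Gene-side bins at Chit1, Aen and Ahdc1 held ends of the pseudogene Gm8618 and the non-coding Gm39039 and Gm36599, in that order, in both lists. Of the partner anchors, 9 of 23 in DKO and 11 of 20 in WT lay within 10 kb of a protein-coding gene end, beside 59.3% of all anchors in the DKO list and 58.3% in the WT list. A partner anchor by definition lies over 10 kb from the ends of its own gene of the 8, and the anchors of the whole lists have no such limit. The definition therefore favours a lower share at partner anchors. A further loop of the same list ended at the partner of 8 of these 23 DKO loops and 7 of the 20 WT loops, beside 21.5% and 22.7% of all anchors. The further loop could be another loop of the same gene, as at Pard6g and Rgs3 in both lists and at Nkain1 in DKO. Choosing genes with many loops therefore favours this share.

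The span of the loops at the 8 genes had a median of 110 kb in DKO (35 to 455) and 105 kb in WT (35 to 465), beside 100 and 115 kb over all loops. The highest pixel of a loop had a median enrichment of 5.94 in DKO and 5.41 in WT, beside 5.12 and 5.39 over all loops. Loops of more than 1 pixel were 13 of 25 in DKO and 14 of 22 in WT, beside 36.5% and 41.6% of all loops. An FDR under 0.01 in all 4 neighbourhoods was held by 27 of the 50 DKO pixels and 26 of the 55 WT pixels, beside 41.3% and 43.0% of all pixels. A loop of more pixels has more bins that can lie within 10 kb of a gene end or match the other list. The way the genes were chosen therefore favours such loops, and the pixels counted for FDR come from the same loops.

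At the 27 pixels of the 8 genes listed in both libraries, DKO had 535 contacts on 90.3 expected and WT had 550 on 96.4. Enrichment was 5.93 in DKO and 5.70 in WT, a DKO/WT ratio of 1.04 (0.92 to 1.17). Over all 1940 pixels in both lists the ratio was 0.980 (0.968 to 0.993). By gene the ratio lay between 0.879 at Rgs3 (0.683 to 1.13) and 1.38 at Adamts8 (0.861 to 2.22). It was above 1 at Chit1, Nkain1, Pard6g, Chst8 and Adamts8 and under 1 at Rgs3, Aen and Ahdc1, and every interval included 1. The single pixels ran from 0.632 to 1.73, and the interval of each of the 27 included 1. The lowest and one of the higher ratios were neighbouring pixels of the same Rgs3 loop, 0.632 (0.307 to 1.27) and 1.42 (0.793 to 2.57). A change in either direction within these intervals was not detectable at this depth. A pixel entered these ratios only if both lists called it. Pixels called in 1 list alone were left out, so the selection favours ratios near 1.

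**Figure D4:**
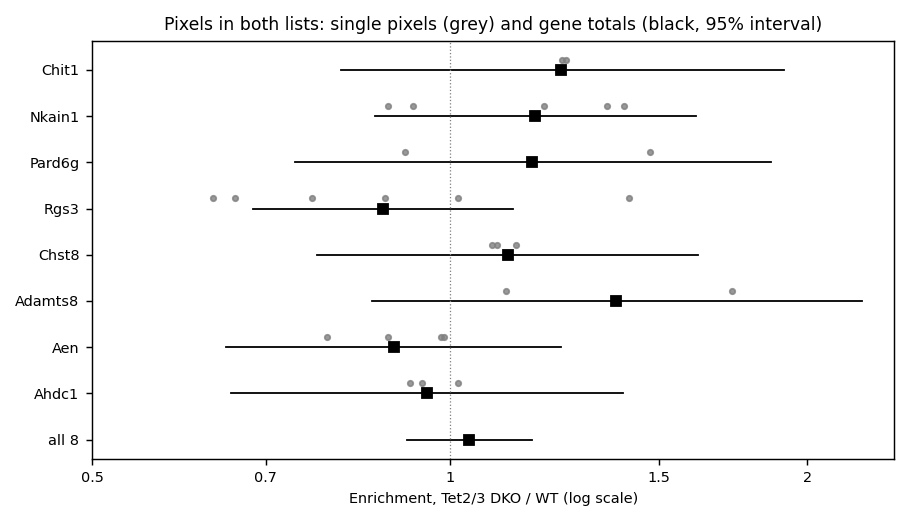
The x axis is the DKO/WT ratio of enrichment on a log scale, at pixels listed in both libraries: grey points are single pixels, black squares are sums per gene and over the 8 genes, and lines are exact 95% intervals of the sums. Each line crosses 1, and the sum over the 8 genes is 1.04.

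The gene most alike to each of the 8, with the 8 themselves left out, was taken as the one, over 1 Mb away or on another chromosome, with the smallest summed difference in DKO loops, WT loops, shared DKO loops and median span in units of 100 kb, over the 2 libraries. Aen was matched at a distance of 0 by 3 genes, Mei1, Syt8 and Tnni2, with 2 loops in DKO, 3 in WT and a median span of 100 kb. Rgs3 was nearest to Gramd4, at a distance of 0.025, with 3 loops in each list. Adamts8 was nearest to Tac4, at 0.05, and Ahdc1 to 4 genes at 0.05, Arhgap23, Hoxb3, Rbms2 and Slc38a3. Chst8, Pard6g and Chit1 were all nearest to 2900026A02Rik on chromosome 5, at distances of 0.1, 1 and 1.15. Nkain1 was the least matched outside the 8, with Trmu at 3.23.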

How the data were processed

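Hi-C was measured in 1 library of Tet2/3 DKO and 1 of WT hair matrix keratinocytes. The pixel lists came from juicer_tools 1.22.01, per the file headers. Juicer and the builds GRCm38 and mm10 are named in the submitters' processing notes. The aligner, read filters and sequencing depth are not stated in them. For each pixel the authors deposited an observed contact count without normalisation, 4 expected counts as a signal on the same scale (donut, bottom-left, horizontal, vertical), a score numbering the class of expected counts, and 4 q-values (FDR). The q-values deposited by the authors reached at most 0.0999, and the lowest observed count was 10. Pixels that were not called are not listed, so absence says only that.

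The 8 genes, the gene sets and the shapes looked for were chosen with earlier results of these data known. Gene ends came from RefSeq (GRCm38.p6) and strands from its promoter table, which holds 6 of the 8. A loop was described by its highest pixel within 10 kb of the gene. In the chain rule, a loop joining both ends of a gene counted with either end as partner. Genes named are the 8, those with an end within 10 kb of an anchor bin of a loop's highest pixel or holding that bin, and the most alike. Intervals are exact 95% intervals, Poisson for counts and enrichment and conditional binomial for ratios, with expected counts as fixed; they cover counting error only, and the labels name no molecular identifiers. Joins across a gene were looked for after the values were seen. The steps were tested on simulated data. Python 3.11.15, numpy 2.4.6, pandas 2.3.3, scipy 1.17.1 and matplotlib 3.10.9 were used. Alternatives were other windows, linkage and matching distances, stricter q-values and counts, and other expected counts. Coordinates are 1-based.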

Additional observations from a re-analysis of the deposited data

How the results depend on the processing

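No paired analysis was possible because there is a single library of each genotype, so no replicate could be left out either. Of 109 values recomputed, 85 stayed within 1.5 times or within their interval and 24 moved beyond. Loops at the 8 genes numbered 15 in DKO and 11 in WT with gene ends inside the anchor bin. In DKO they numbered 16 at an FDR under 0.01, 12 at 20 or more contacts and 16 without weak loops, those of 1 pixel with a high sum of its 4 FDRs. Shared DKO loops numbered 13 with gene ends inside the bin, 12 at an FDR under 0.01, 11 at 20 or more contacts and 14 without weak loops. Genes with a fan in either library numbered 1 with gene ends inside the bin, 1 at an FDR under 0.01, 0 at 20 or more contacts, 1 without weak loops and 2 with linkage at 50 kb. Genes with a stripe numbered 0 with gene ends inside the bin, 1 at an FDR under 0.01 and 1 at 20 or more contacts. With loops joining both gene ends counted, tried after the values were seen, fans stood at 5 genes and stripes at 2. Chains stayed within 1.5 times, at 2 to 4 genes, with Chit1 and Rgs3 in every setting. Pard6g had no chain with gene ends inside the bin, at an FDR under 0.01, at 20 or more contacts or without weak loops. Whether chains stayed closed was not recomputed. The DKO/WT enrichment ratio stayed within its interval, from 0.940 with the horizontal to 1.13 with the vertical expected count, whose interval was 1 to 1.28. Of 48 recomputed enrichments of single highest pixels, 7 moved beyond their interval, 4 of them at Nkain1. The causes were not tested. Counts of 11 to 31 contacts per pixel limit what any comparison of 1 pixel can show.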
